A study of Mus musculus with 2 samples.

Results

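Peritubular myoid cells are the flat, smooth-muscle-like cells that wrap each seminiferous tubule of the testis. They were picked out here from the single-cell RNA sequencing of mouse testes at postnatal day (PD) 7, with 1 library from a control male and 1 library from a Brca1 vKO male. A cell was counted as a myoid cell when the unique molecular identifiers (UMIs, each marking 1 captured RNA molecule) of Acta2, Myh11 and Tagln summed to at least 15 per 10,000 UMIs and when the genes of 4 other cell classes stayed under their limits. These were under 5 for the pericyte genes Rgs5, Higd1b, Cox4i2 and Ndufa4l2, under 10 for the Sertoli cell genes Clu, Amhr2, Rhox8 and Cst9, under 5 for the Leydig cell genes Cyp17a1, Cyp11a1 and Hsd3b1, and under 2 for the germ cell genes Ddx4 and Dazl. This left 612 of 5077 retained control cells and 1578 of 8712 retained Brca1 vKO cells, or 2190 of 13789 in all.

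In Brca1 vKO mice (Brca1 f/-; Vasa-Cre), 1 Brca1 allele is deleted in every cell of the body and the floxed allele is removed by a Cre that is driven by the germ cell gene Vasa. The myoid cells of this library are therefore somatic cells that carry the deleted allele but are outside the cells in which the Cre is meant to act. Per the study's methods and results the libraries came from a single pair of mice, 1 control and 1 Brca1 vKO male, with no biological repeats. The exact genotype of the control is not given in the sources used here. The testes were dissociated with collagenase IV and then TrypLE Express, and each library was made from single cells in suspension. Shares of cells are therefore shares of what came through this step. With 1 library a genotype there was no replicate check. The values of the libraries are given side by side without a test, and the intervals printed are exact 95% intervals that cover counting error only. Genotype, animal and library cannot be told apart in any of these differences.

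Around each tubule, myoid cells and Sertoli cells lay down a shared basement membrane, and the myoid layer contracts to move fluid and, in the adult, sperm. Contraction rests on the smooth muscle program, which is switched on by serum response factor together with its partner myocardin. In the postnatal testis these cells are also known as targets of the hedgehog signal from Sertoli cells and as a source of growth factors for spermatogonial stem cells.

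The control myoid cells held 8979641 UMIs and the Brca1 vKO myoid cells 17493274. Values are given in this order, control first, from here on. The median myoid cell had 14105.5 and 10154.5 UMIs and 4080.5 and 3363.5 genes, so the control cells were the deeper ones. Their median share of mitochondrial UMIs was 2.88% and 2.67%, with a highest cell at 8.31% and 9.87%. The summed contractile level that chose the cells had a median of 103 per 10,000 UMIs in the control, from 15.1 to 284, and of 90.8 in the Brca1 vKO, from 15.3 to 574. Outside the gate its median was 0 and 0.442. The plot of Acta2, Myh11 and Tagln against the stromal genes Dcn and Dlk1 shows the cells on both sides of the limit. Just under the limit, between 10 and 15, there were 35 control and 59 Brca1 vKO cells that met the other limits, and just above it, between 15 and 20, there were 16 and 31. Dcn, a small proteoglycan of loose connective tissue, was at 1693 and 1690 counts per 1000000 UMIs (CPM, over the summed cells of 1 library) just outside and at 1701 and 1356 CPM just inside, against 366 and 379 CPM over all myoid cells. Fbxl22 is a muscle F-box protein and a marker that the rule did not use. It was at 29.96 and 43.9 CPM just outside. Just inside it was at 11 and 11 CPM, from few UMIs in 16 and 31 cells. Over all myoid cells it was at 185 and 163 CPM. The cells within a few UMIs of the limit were therefore richer in stromal and poorer in myoid RNA than the rest of the gate.

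**Figure D1:**
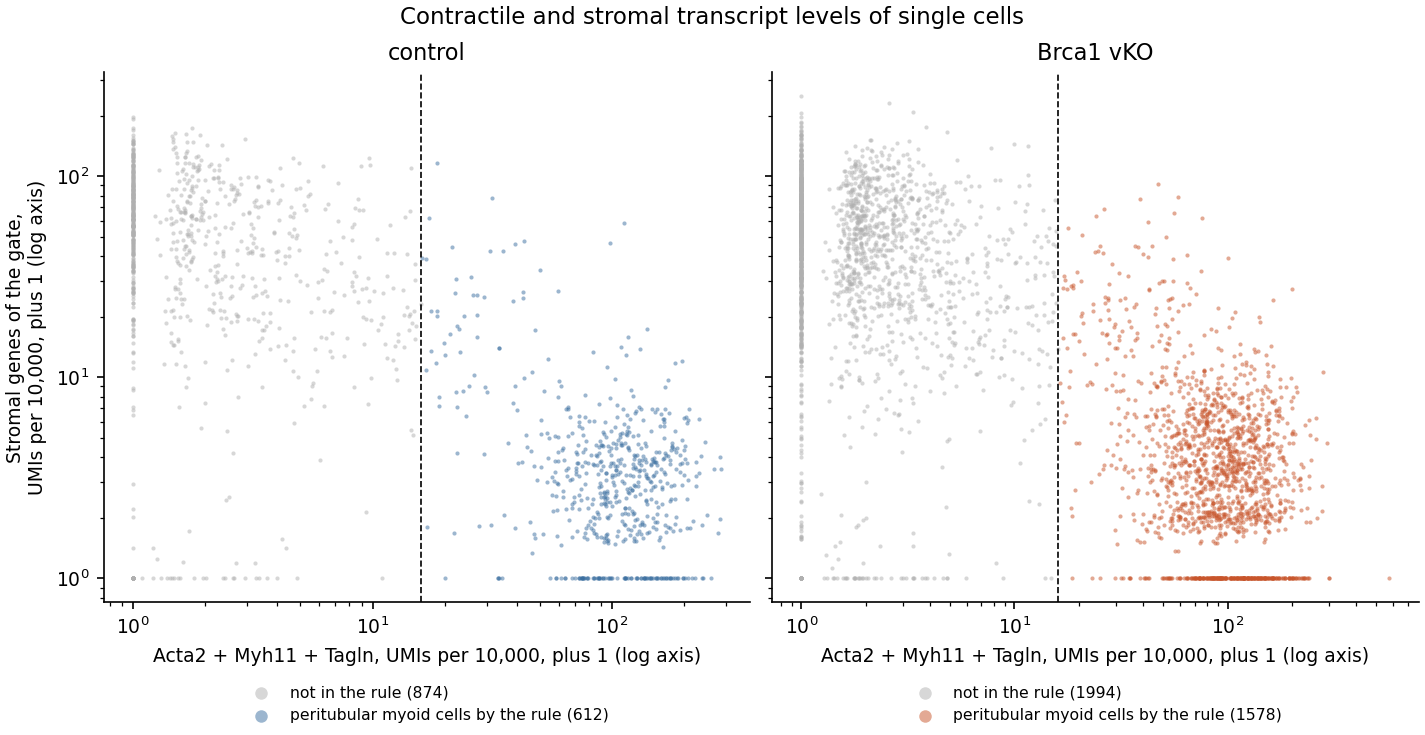
Each point is 1 cell of the control (left) or Brca1 vKO library (right), with the summed level of Acta2, Myh11 and Tagln on the horizontal axis and that of Dcn and Dlk1 on the vertical axis, both as UMIs per 10,000 plus 1 on log axes. Coloured points to the right of the dashed limit are the 612 and 1578 myoid cells, and grey points are the retained cells under the limit that met the limits on the other classes, most of them high in Dcn and Dlk1.

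The markers outside the rule, Fbxl22 and Col4a3, were higher in the myoid than in the stromal-like cells. Fbxl22 was not confined to myoid cells and was at 50.2 and 54.8 CPM in the pericyte-like cells (40 in each library). Fbxl22 was at 2.69 and 2.98 CPM in the stromal-like cells (Dcn and Dlk1 summing to at least 10 per 10,000 UMIs, contractile genes under 5, and the same limits on other classes; 660 control and 1621 Brca1 vKO cells). Col4a3, a collagen chain of specialised basement membranes, was at 1003 and 925 CPM in the myoid cells and at 67.3 and 58.1 CPM in the stromal-like cells. Near the limit of the rule it was at 226 and 138 CPM just outside and at 382 and 187 CPM just inside. After every cell was thinned to 5000 UMIs, Fbxl22 had a UMI in 55.0% and 49.7% of myoid cells, in 1.09% and 1.38% of stromal-like cells and in 1.10% and 1.27% of Sertoli-like cells. Without thinning, its share among myoid cells was 80.2% and 70.3%. Thinning left out 14 and 29 myoid cells that were too shallow. No barcode was shared between the myoid cells of the libraries, and Scrublet, a doublet caller, marked 6 and 26 of them.

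Genes of the other classes were low but not at 0 in the myoid cells. Some of them were kept low by the rule, which limits the Sertoli cell genes Clu and Cst9 and the pericyte gene Rgs5. Their low levels are therefore no check of the gate. The 10 Sertoli cell markers summed to a median of 2.05 per 10,000 UMIs in the control, from 0 to 22.3, and to 3.74 in the Brca1 vKO, from 0 to 23.6. The defining pericyte gene Rgs5 had 0 UMIs in the control myoid cells and 24 in the Brca1 vKO. By contrast, 3 control cells had red blood cell genes at 100 or more per 10,000 UMIs. In the Brca1 vKO, 2 cells reached this limit for neutrophil genes and 2 for mast cell genes. A further 4 met the gate of endothelial cells and 2 that of macrophages, which makes 10 cells. Smaller amounts were more widespread, and Hbb-bs had a UMI in 553 control and 680 Brca1 vKO myoid cells. The 3 cells richest in Hbb-bs, a beta globin, held 84.4% of its UMIs in the control myoid cells. Without the 3 and the 10 cells, Hbb-bs went from 1207 and 50.1 CPM to 190 and 50.4 CPM, and the neutrophil gene S100a9 from 0.223 and 85.5 CPM to 0.224 and 6.07 CPM.

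The contractile apparatus set the myoid cells apart from the stromal-like cells beyond the genes of the rule. Because the gates were cut on expression in these same cells, this contrast is a description and carries no test. A gene was counted as higher in myoid cells when it was at least 2-fold over the stromal-like cells in both libraries, on the log2(CPM + 10) scale and among 12712 genes with at least 50 UMIs in the myoid cells. By this rule 337 genes, or 2.65%, were higher and 239, or 1.88%, were lower. Of the 38 contractile genes, 37 were compared and 22 were higher, with none lower. Without Acta2, Myh11 and Tagln the count was 19 of 34, with a median log2 difference of 1.18 and 1.10 against -0.05 and -0.05 over all genes. All 35 listed contractile genes outside the rule summed to 15314 and 13858 CPM in the myoid cells. Their sum was 4869 and 4810 CPM in the stromal-like cells and 16088 and 15697 CPM in the pericyte-like cells.

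Among the filament proteins, the smooth muscle actin Acta2 (chr19:34241090-34255590 of GRCm38, minus strand) was at 7479 and 6995 CPM in the myoid cells against 64.7 and 69.0 CPM in the stromal-like cells. The smooth muscle myosin heavy chain Myh11 (chr16:14194535-14291372, minus strand) was at 1081 and 1082 CPM against 12.6 and 13.4 CPM. Tagln (chr9:45929619-45936058, minus strand), which encodes the actin-bundling protein transgelin, was at 1798 and 1184 CPM against 8.06 and 5.72 CPM. All 3 belong to the rule. Of the genes outside it, the regulatory light chain Myl9 was at 1816 and 1707 CPM against 232 and 231 CPM. Tpm2, a tropomyosin that lies along the actin filament, was at 880 and 794 CPM against 117 and 106 CPM. The second smooth muscle actin, Actg2, was at 48.0 and 51.8 CPM against 0.278 and 0.489 CPM, so the difference held for both smooth muscle actins. Calponin (Cnn1), which binds actin and slows myosin, was at 92.9 and 71.3 CPM against 1.85 and 3.52 CPM.

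Regulators of contraction were higher as well. Mylk, the kinase that starts contraction by phosphorylating the light chain, was at 980 and 806 CPM against 132 and 137 CPM. Prkg1, the cGMP-dependent kinase that relaxes smooth muscle, was at 697 and 604 CPM against 5.37 and 6.11 CPM. Tnnt2, the troponin T of heart muscle, was at 221 and 153 CPM in the myoid cells and at 1.02 and 1.61 CPM in the stromal-like cells. In the pericyte-like cells (40 in each library, with the endothelial gene Pecam1 at 6.55 and 150 CPM), which are contractile too, Tnnt2 was at 4.37 and 9.97 CPM whereas Prkg1 was at 2932 and 2357 CPM. The plot of genes by cell class shows these levels in full.

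**Figure D2:**
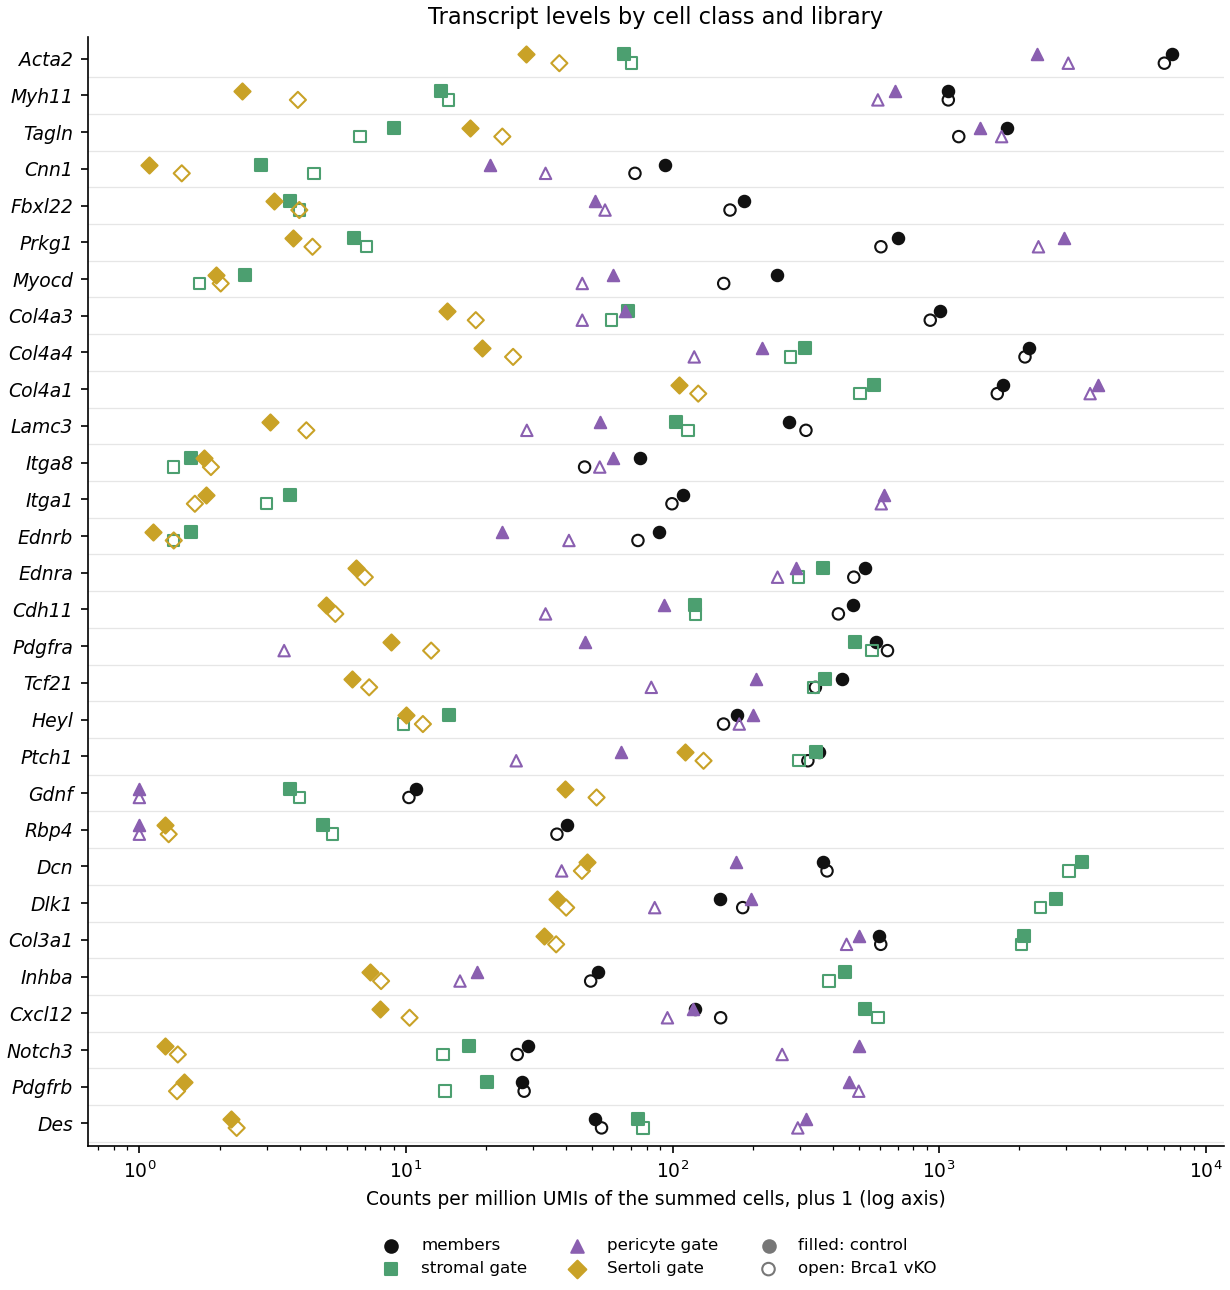
Level of 30 genes, 1 on each line, in the myoid cells (circles, members) and the stromal, pericyte and Sertoli gates (squares, triangles and diamonds), as CPM plus 1 on a log axis, filled for the control and open for the Brca1 vKO library. Col4a3 in myoid cells (1003 and 925 CPM) lies to the right of the other gates, whereas Prkg1 is highest in the pericyte gate (2932 and 2357 CPM).

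The response element of serum response factor, the CArG box (CC, then 6 bases that are each A or T, then GG), was looked up on both strands of the RefSeq promoter windows, from 250 bases before to 50 after each gene start on GRCm38.p6. It was found in 8 of 45 windows of the contractile genes, or 17.8%, and in 1.63% of all 32851 windows. By gene these were Fbxl22, Fhl1, Fhl2, Ldb3, Myl6 and Myl9, or 6 of 32 contractile genes with a window. Acta2, Lpp, Pdlim3 and Susd5 were added when 1 base of the core was allowed to be G or C, which took the share to 26.7% of windows against 9.98% of all windows. The Myl9 stretch is shown because it held both forms close together, at -161 with all 6 core bases A or T and at -99 with 1 G in the core, counted from the gene start; capitals mark them, and the stretch is chr2:156775283-156775394 of GRCm38, plus strand.
Myl9: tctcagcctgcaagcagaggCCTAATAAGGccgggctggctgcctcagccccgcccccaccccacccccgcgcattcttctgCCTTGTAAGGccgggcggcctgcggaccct
A match is a run of letters, not a measured binding site, and binding was not measured here.

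Of the transcription factors listed for this lineage, 37 of 43 were compared, and 7 were higher in myoid than in stromal-like cells and 3 were lower. Their median difference was 0.03 and 0.00, close to that of all genes. Myocd (chr11:65176561-65269989, minus strand), which encodes myocardin, was at 245 and 155 CPM in the myoid cells and at 1.48 and 0.684 CPM in the stromal-like cells, and at 59.0 and 44.9 CPM in the pericyte-like cells. Its partner Srf, which every cell type uses, was at 18.7 and 21.2 CPM in the myoid cells. Heyl, a repressor downstream of Notch, was at 173 and 154 CPM against 13.5 and 8.80 CPM. The muscle factor Mef2c was at 225 and 216 CPM against 74.8 and 72.1 CPM. The other 4 higher genes were Hes1, Prrx1, Id3 and Id4. Factors of the testis mesenchyme were shared with the stromal-like cells. Tcf21, a factor of mesenchymal progenitors, was at 432 and 342 CPM in the myoid cells and at 373 and 337 CPM in the stromal-like cells, and Nr2f2 was at 588 and 505 CPM and at 638 and 538 CPM. Ebf1, Twist1 and Lhx9 were the 3 lower genes, with Ebf1 at 489 and 608 CPM against 2196 and 2482 CPM.

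Collagen IV chains made up 4 of the 6 higher genes of the basement membrane. Of its 33 listed genes, 30 were compared, 6 were higher in myoid cells and 2 were lower, and the median difference was 0.28 and 0.34. Col4a3 (chr1:82586921-82722059, plus strand) and Col4a4 (chr1:82448423-82586849, minus strand) encode chains that assemble together with Col4a5. Col4a4 was at 2169 and 2098 CPM in the myoid cells and at 314 and 276 CPM in the stromal-like cells. In the pericyte-like cells Col4a3 was at 65.5 and 44.9 CPM and Col4a4 at 216 and 120 CPM, so both were lower there than in the myoid cells. The common chains had another order. Col4a1 was at 1731 and 1651 CPM in the myoid cells, at 569 and 504 CPM in the stromal-like cells and at 3957 and 3683 CPM in the pericyte-like cells. Col4a5 was at 191 and 193 CPM in the myoid and at 136 and 147 CPM in the stromal-like cells.

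Col4a4 and Col4a3 are read in opposite directions from neighbouring starts. The 71 bases between the annotated genes, chr1:82586850-82586920 of GRCm38 and shown here on the minus strand, are printed because both genes were high in the same cells.
Between Col4a4 and Col4a3: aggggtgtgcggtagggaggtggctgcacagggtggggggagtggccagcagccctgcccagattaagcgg

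Other basement membrane parts differed less. The laminin chain Lamc3 was at 273 and 316 CPM in the myoid cells against 102 and 113 CPM in the stromal-like cells, and Frem1, a protein that anchors epithelia to the membrane, was at 123 and 123 CPM against 14.0 and 13.7 CPM. Lama2, the main laminin alpha chain of muscle, was at 1523 and 1738 CPM against 1250 and 1247 CPM and did not reach 2-fold. The lower genes were Nid2 and Smoc1.

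Genes of the fibrillar matrix ran the other way. Of 32 listed, 31 were compared, 2 were higher in myoid cells and 9 were lower, and the median difference was -0.38 and -0.36. Dcn, one of the genes that define the stromal-like gate, was at 366 and 379 CPM against 3430 and 3068 CPM. Col3a1 was at 592 and 603 CPM against 2088 and 2035 CPM, and Col1a1 at 921 and 898 CPM against 2035 and 2008 CPM. Both are fibre-forming collagens of loose connective tissue. The 2 higher genes were elastin (Eln), at 302 and 269 CPM against 123 and 89.6 CPM, and Thbs1. Mgp, a matrix protein that keeps soft tissue from calcifying, was at 2207 and 2465 CPM against 573 and 477 CPM.

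Adhesion genes showed 4 of 30 compared genes higher and 2 lower. Itga8 and Itga1, integrin alpha chains of contractile and mesenchymal cells, were near 0 in the stromal-like cells. Itga8 (chr2:12106632-12301922, minus strand) was at 74.4 and 45.8 CPM against 0.556 and 0.342 CPM, and at 59.0 and 52.3 CPM in the pericyte-like cells. Itga1, a collagen receptor chain, was at 108 and 98.5 CPM against 2.69 and 2.0 CPM, and at 618 and 606 CPM in the pericyte-like cells. Itga7 and the cadherin Cdh11 completed the higher genes, with Cdh11 at 476 and 418 CPM against 120 and 121 CPM.

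Most receptor genes stayed within 2-fold of the stromal-like cells. Of 46 receptor genes, 36 were compared, 1 was higher and 2 were lower, with a median of 0.06 and -0.05. The higher one was Ednrb, the endothelin B receptor, at 87.9 and 73.2 CPM against 0.556 and 0.342 CPM. Ednra, the A receptor, was at 527 and 477 CPM in the myoid and at 364 and 295 CPM in the stromal-like cells. Their ligand Edn1 was at 333 and 305 CPM in the Sertoli-like cells and at 3.90 and 6.29 CPM in the myoid cells. Pdgfra, the receptor of PDGF-A, was at 579 and 639 CPM against 481 and 560 CPM, with its ligand Pdgfa at 128 and 149 CPM in the Sertoli-like cells. Pdgfrb and Notch3, by which mural cells of vessels are known, separated the pericyte-like cells. Pdgfrb was at 456 and 498 CPM there and at 26.3 and 26.8 CPM in the myoid cells, and Notch3 was at 500 and 257 CPM and at 27.7 and 25.2 CPM.

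The hedgehog ligand was read in the Sertoli-like cells and its receptor and targets in both the myoid and the stromal-like cells. All 12 were compared, none was higher in the myoid cells and 1 was lower, and the median difference was -0.08 and -0.04. The ligand Dhh was at 167 and 186 CPM in the Sertoli-like cells and at 1.67 and 4.06 CPM in the myoid cells. Its receptor and target Ptch1 was at 354 and 321 CPM in the myoid cells and at 345 and 297 CPM in the stromal-like cells. The target Gli1 was at 40.9 and 37.0 CPM and at 41.5 and 37.7 CPM, and the inhibitor Hhip at 167 and 170 CPM and at 186 and 162 CPM.

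Secreted factors of the niche were more often lower than higher. Of 56 listed, 45 were compared, 2 were higher in the myoid cells and 12 were lower, with a median of -0.32 and -0.32. Gdnf, a growth factor for spermatogonial stem cells, was at 9.91 and 9.26 CPM in the myoid cells, at 2.69 and 2.98 CPM in the stromal-like cells and at 38.6 and 50.9 CPM in the Sertoli-like cells. Csf1, another factor named for these stem cells, was at 25.9 and 27.1 CPM against 35.0 and 36.4 CPM. Neither reached 2-fold on the scale used. The higher genes were Igfbp5, which binds insulin-like growth factors, at 303 and 290 CPM against 44.2 and 33.8 CPM, and Bmp7, at 35.1 and 43.6 CPM against 10.8 and 11 CPM. Among the lower genes, Igf1 was at 269 and 332 CPM against 938 and 976 CPM. The chemokine Cxcl12 was at 120 and 151 CPM against 526 and 589 CPM. Inhba, the activin A subunit, was at 51.3 and 48.3 CPM against 443 and 385 CPM. Kitl, the ligand of KIT, was at 41.3 and 57.9 CPM in the myoid cells and at 813 and 824 CPM in the Sertoli-like cells. Of 16 retinoid genes, 11 were compared, and 2 were higher. Rbp4, which carries retinol in the blood, was among them at 39.2 and 35.8 CPM against 3.89 and 4.30 CPM.

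Other leading genes outside these lists, among the 15 with the largest difference from the stromal-like cells, were Pde4b, Pde10a, Dner, Nalcn and C1qtnf3. Nalcn, a channel that leaks sodium and sets resting potential, was at 258 and 238 CPM against 13.9 and 15.2 CPM. Dner, a Notch ligand of neurons, was at 184 and 120 CPM against 3.70 and 2.93 CPM. In the pericyte-like cells Nalcn was at 0 and 2.49 CPM and Dner at 0 and 2.49 CPM, where 2.49 CPM is 1 UMI. C1qtnf3, a secreted C1q family protein, was at 224 and 247 CPM in the myoid cells, at 8.98 and 18.0 CPM in the stromal-like cells and at 2.18 and 9.97 CPM in the pericyte-like cells. The phosphodiesterase Pde4b, which breaks down cAMP, was at 225 and 210 CPM against 8.52 and 8.80 CPM and at 140 and 152 CPM in the pericyte-like cells. So Nalcn, Dner and C1qtnf3 were low in both neighbouring classes, whereas Pde4b and Prkg1 were present in the pericyte-like cells too.

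Within the gate, the contractile level was used to cut a low part (under 60 per 10,000 UMIs), a middle part (60 to 120) and a high part (over 120). The parts held 110, 269 and 233 control cells and 362, 771 and 445 Brca1 vKO cells, or 18.0%, 44.0% and 38.1% against 22.9%, 48.9% and 28.2%. These parts are ranges of a score, not types, and the genes of the score differ between them by construction. In both libraries 108 genes, or 0.85%, were at least 1.5-fold higher in the high than in the low part and 354, or 2.78%, were lower. Of the 34 contractile genes outside the rule, 17 were among the higher and none among the lower. Col4a3 was at 563, 1086 and 1165 CPM over the low, middle and high part of the control and at 623, 989 and 1132 CPM in the Brca1 vKO, so most of its difference lay between the low and the middle part. Dner, Tnnt2 and Myl9 were highest in the high part in both libraries, with Tnnt2 at 46.5, 194 and 361 CPM and at 51.1, 141 and 289 CPM.

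In 6 bands of contractile level, Dcn was at 1371 CPM in the lowest control band (15 to 30 per 10,000 UMIs), at 664 CPM in the next and between 174 and 285 CPM in the 4 bands from 60 on. In the Brca1 vKO it was at 1135 and 601 CPM and then between 210 and 287 CPM. Dlk1, a membrane protein of immature mesenchyme, was at 559 and 427 CPM in the 2 lowest control bands and between 36.1 and 112 CPM in the others. It was at 637 and 370 CPM, and then between 63.4 and 119 CPM, in the Brca1 vKO. The 2 lowest bands thus held cells with stromal as well as contractile RNA. Genes of several other groups were lower in the high part. They included Igf1, Inhba, Tgfb2, Vegfd, Wnt6, Igfbp3 and Nrg1 of 45 niche factors, Esr1, Agtr2 and Npr3 of 36 receptors, and Aldh1a1, Aldh1a3 and Cyp26b1 of 11 retinoid genes.

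**Figure D3:**
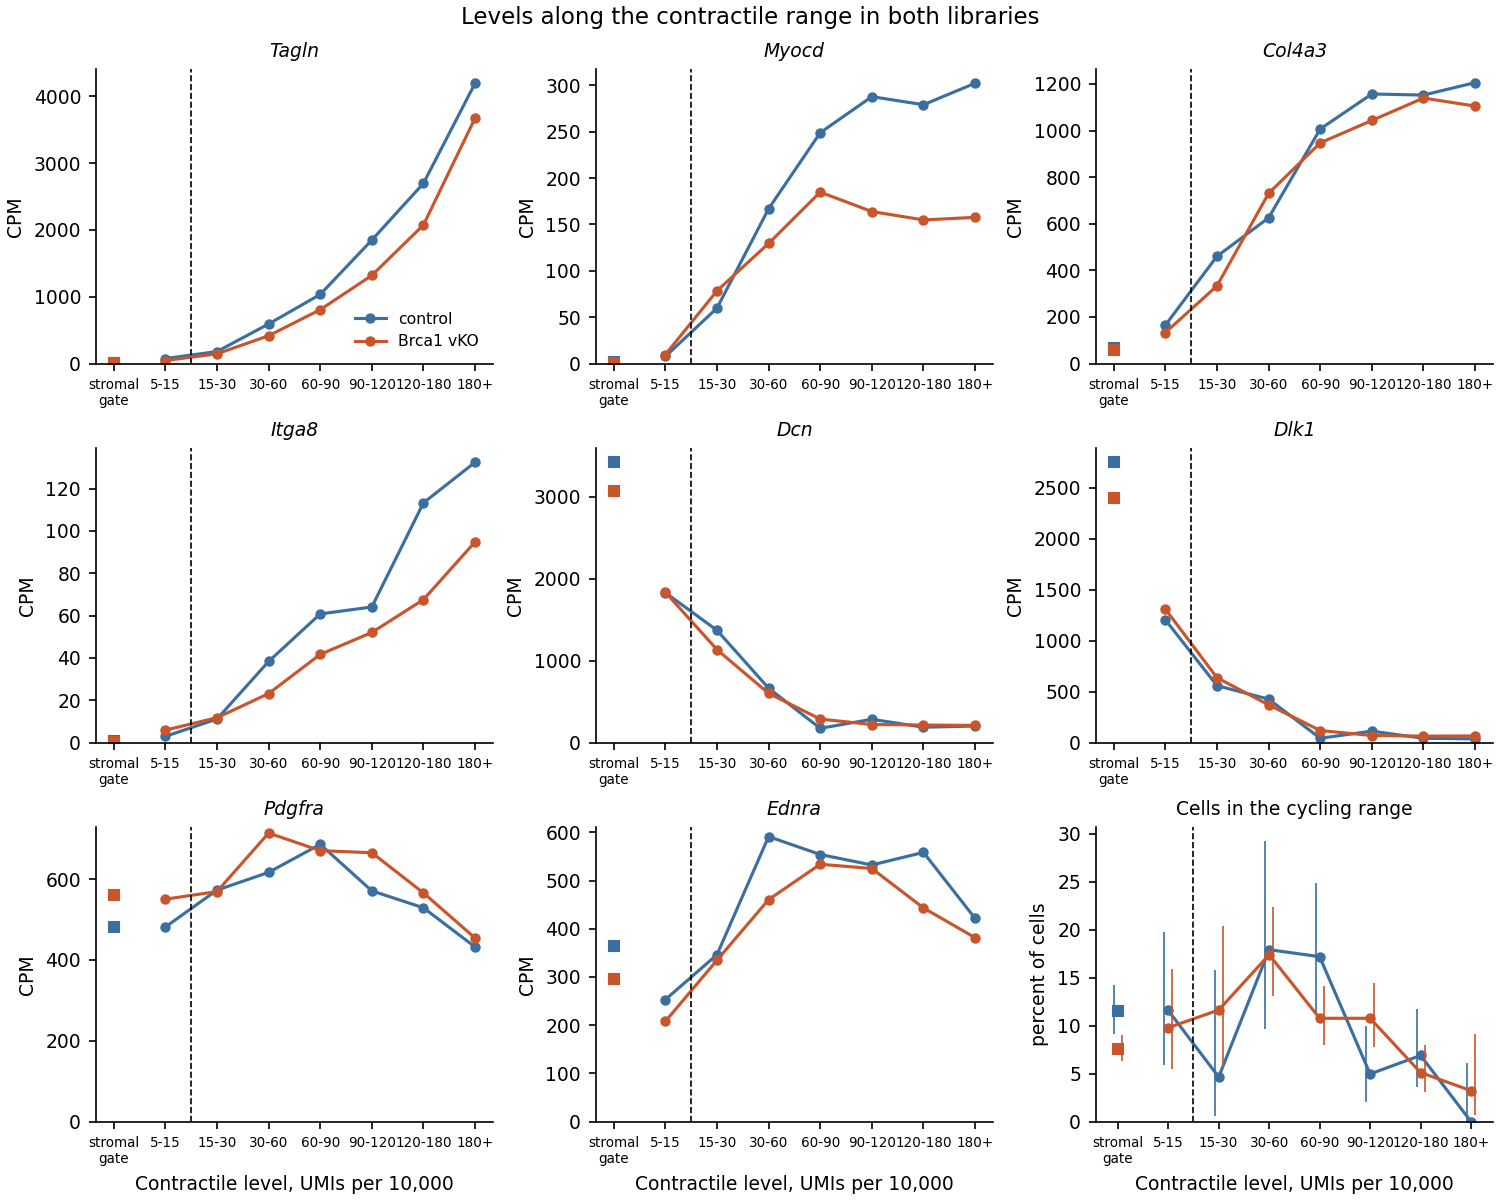
Level of 8 genes in CPM, and the share of cells in the cycling range in percent with exact 95% intervals, by contractile level (horizontal axis, UMIs of Acta2, Myh11 and Tagln per 10,000) for control (blue) and Brca1 vKO (orange) cells, where the dashed line is the limit of the rule and the squares are the stromal gate. Dcn is at 1371 and 1135 CPM in the lowest myoid band and at 202 and 210 CPM in the highest, and Myocd in the highest band is at 302 and 158 CPM.

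A cycling range was cut at a summed level of at least 5 per 10,000 UMIs of Mki67, Top2a, Cdk1, Ccnb1, Ube2c and Birc5, genes of dividing cells. It held 55 control myoid cells, or 8.99% (6.84 to 11.5), and 162 Brca1 vKO myoid cells, or 10.3% (8.81 to 11.9). The ratio of 1.14 (0.836 to 1.58) has an interval that includes 1. Between 4 and 6, near the limit, there were 6 and 30 cells. Thinned to 5000 UMIs, 53 of 566 and 155 of 1533 myoid cells were in the range. The stromal-like cells were at 11.5% and 7.59% and the Sertoli-like cells at 28.7% and 29.6%, so the myoid cells were nearer to the stromal-like than to the Sertoli-like cells. The share was 12.7%, 10.8% and 5.15% over the low, middle and high contractile part of the control and 16%, 10.8% and 4.72% in the Brca1 vKO, and no control cell of the highest band (180 and above) was in the range. The cycling myoid cells were deeper, with a median of 20457 UMIs against 13675 for the others in the control and of 14639 against 9935 in the Brca1 vKO.

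At 1.5-fold in both libraries, 701 genes, or 5.51%, were higher in the cycling than in the other myoid cells and 66, or 0.519%, were lower. Of the G2 and M phase genes, which include the 6 that set the range, 52 of 53 were higher, and of the S phase genes, 38 of 42. Acta2 was at 6276 against 7656 CPM in the control and at 6140 against 7135 CPM in the Brca1 vKO. Tagln was at 923 against 1926 CPM and at 531 against 1290 CPM, a log2 difference of -1.05 and -1.27. Ccnd2, a D cyclin, was at 157 against 334 CPM and at 113 against 317 CPM, and Ogn, a small proteoglycan, at 59.1 against 196 CPM and at 40.7 against 179 CPM. Tagln, Ccnd2 and Ogn were picked after their values were seen.

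The myoid cells made up 12.1% (11.2 to 13) of retained control cells and 18.1% (17.3 to 18.9) of retained Brca1 vKO cells, a ratio of 1.5 (1.37 to 1.65). The germ cells went the other way, from 19.1% to 3.06% of retained cells, and each share depends on the others. With germ cells left out of the total, the myoid shares were 14.9% and 18.7%, and the ratio was 1.25 (1.14 to 1.38). There were 0.927 and 0.973 myoid cells for each stromal-like cell, a ratio of 1.05 (0.920 to 1.20), and 0.263 and 0.349 for each Sertoli-like cell, a ratio of 1.33 (1.19 to 1.48). The size of the difference thus rested on the class it was set against, and against the stromal-like cells the interval included 1. More cells of the Brca1 vKO than of the control were loaded, and the shares of 1 library vary with the dissociation by an amount that these data do not show.

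Brca1 itself was read in the myoid cells as a check of the genotype. It had 145 control and 163 Brca1 vKO UMIs, or 16.1 and 9.32 CPM, a ratio of 0.577 (0.459 to 0.727). With the cycling range left out the ratio was 0.703 (0.458 to 1.09), an interval that includes 1. The stromal-like cells were at 18.0 and 9.48 CPM, the Sertoli-like cells at 29.6 and 25.5 CPM and the germ-like cells at 70.8 and 43.5 CPM. Most Brca1 UMIs came from dividing cells, with 91.3 and 44.4 CPM in the cycling myoid cells and 5.11 and 3.59 CPM in the others. The counts cover the whole gene and need not lie in the deleted part, so they do not measure the loss of the allele.

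Few genes of the myoid cells differed past 1.5-fold between the libraries. Of 12712 genes, 49, or 0.385%, were at least 1.5-fold higher in the Brca1 vKO and 19, or 0.149%, were lower, which is 0.535% together, again on the log2(CPM + 10) scale. The median over all genes was near 0. Of the 49 higher genes, 12 had at least 50% of their UMIs of a library in 3 cells, most of them blood cell genes, and a further 10 were at least 5-fold over the myoid level in the Sertoli-like cells of both libraries, a limit chosen after the values were seen. The latter were Tmem184a, Gstm6, Susd3, Inha, Clu, Trank1, Cst9, Wfdc10, Defb19 and Cst12. This left 27 higher genes, and by the same count 13 of the 19 lower genes. Genes of further classes were not taken out. Among the 27, Pecam1 was at 2.78 and 13.4 CPM in the myoid cells and at 661 and 557 CPM in the endothelial gate. Cx3cr1 was at 6.24 and 16.1 CPM in the myoid cells and at 357 and 501 CPM in the macrophage gate. In the smooth muscle program, none of the 34 contractile genes outside the rule passed the fold, and of the 3 genes of the rule Tagln was lower. The 34 genes had a median of -0.11, and the summed level of all 35 listed had a ratio of 0.905 (0.899 to 0.911). In the basement membrane list none of 30 genes passed the fold. The summed level of all 33 listed was 12562 and 12473 CPM, a ratio of 0.993 (0.986 to 1.0). None passed among 31 fibrillar matrix, 36 receptor, 12 hedgehog and 11 retinoid genes. Of 37 transcription factors, Myocd was lower, and of 30 adhesion genes, Itga8. Of 45 niche factors, Bmp5 was lower and Inha was higher. Inha was at 16.4 and 30.8 CPM in the myoid cells and at 1029 and 1108 CPM in the Sertoli-like cells. It is itself 1 of the 10 Sertoli cell markers. The plot by gene list shows these medians, and the scatter of the libraries shows the genes past the fold.

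**Figure D4:**
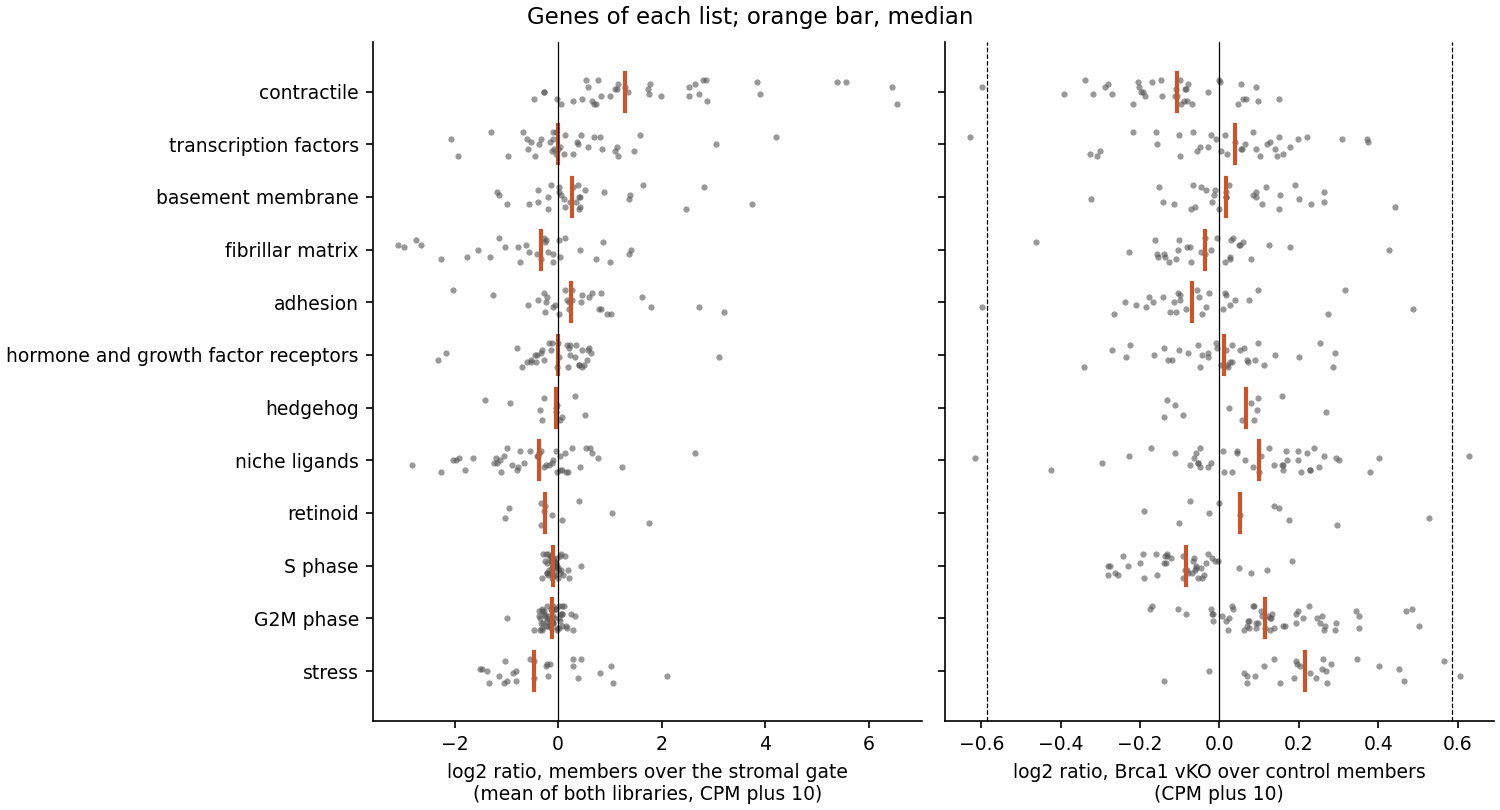
Each point is 1 gene of a list and each orange bar its median, with the log2 ratio of myoid (members) over stromal-like cells as the mean of both libraries (left) and of Brca1 vKO over control myoid cells (right, dashed lines at 1.5-fold), both on the log2(CPM + 10) scale. On the right the contractile list, here with the genes of the rule, has a median of -0.11 and the basement membrane list of 0.02.

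**Figure D5:**
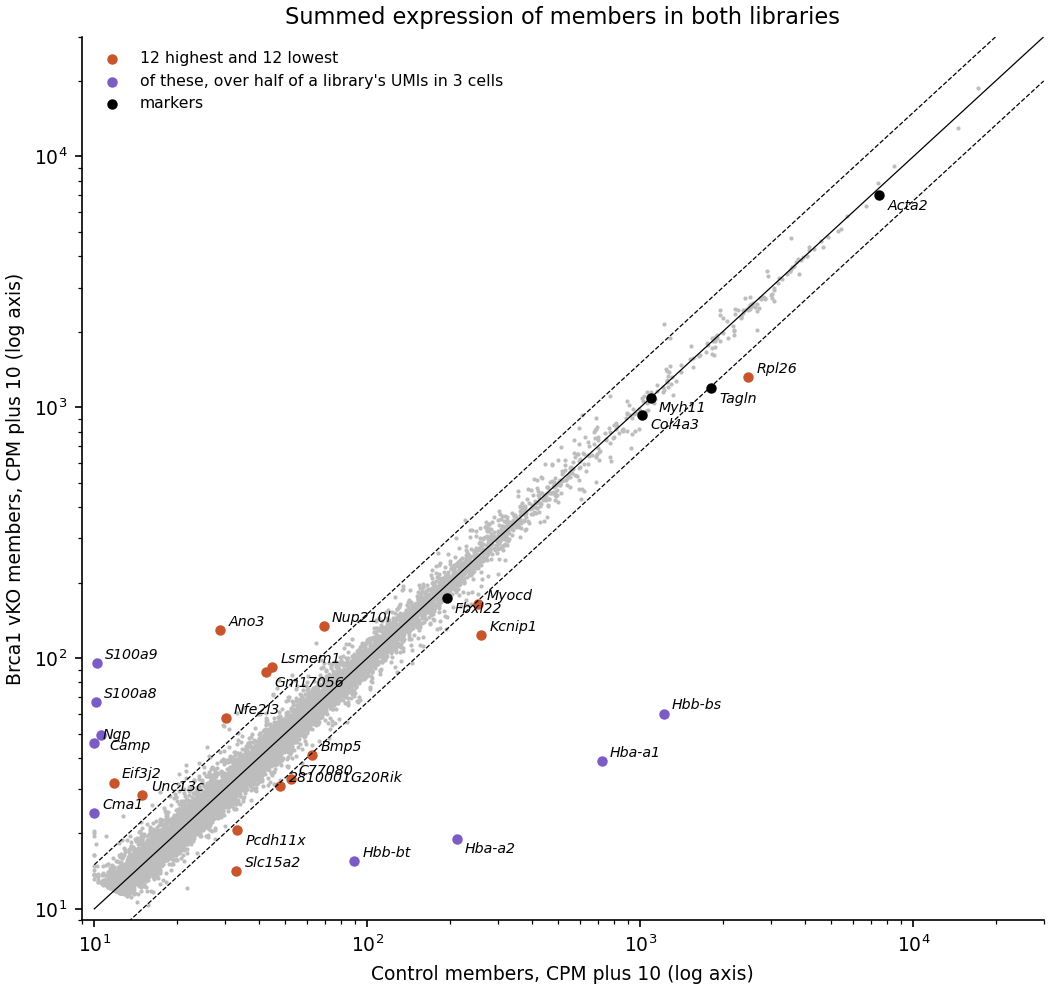
Level of each gene in myoid cells of the control library (horizontal axis) and the Brca1 vKO library (vertical axis), in CPM plus 10 on log axes, with dashed lines at 1.5-fold, orange for the 12 furthest genes to each side, purple for those of them with most UMIs of a library in 3 cells, and black for the markers. Ano3 lies above the lines at 18.9 and 119 CPM, and Myocd, Kcnip1 and Rpl26 lie below them.

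Myocd and Itga8, both higher in the myoid than in the stromal-like cells, were lower in the Brca1 vKO. Myocd was at 245 CPM in the control and 155 CPM in the Brca1 vKO, a ratio of 0.632 (0.597 to 0.669) and a log2 difference of -0.63. At 5000 UMIs a cell, 49.8% and 37.2% of myoid cells had a Myocd UMI, against 72.4% and 52.3% without thinning. A larger share of control cells was of high contractile level, where the control Myocd was higher than in the low part. Myocd was at 59.8 CPM in the control and 78.4 CPM in the Brca1 vKO in the lowest band, and at 167 and 130, 249 and 185, 288 and 164, 279 and 155, and 302 and 158 CPM in the others. It was thus lower in the Brca1 vKO in 5 of 6 bands, which is a description. Tagln is part of the level that sets the bands and differed between the libraries, so a band need not hold like cells in both. Within a contractile level of 60 to 120, a range chosen after seeing the data, the Myocd ratio was 0.652 (0.603 to 0.706). The Itga8 ratio there was 0.739 (0.629 to 0.870), against 0.616 over all myoid cells. Whether the mix of contractile levels plays a part in the Myocd or Itga8 difference was not tested. Itga8 was at 74.4 and 45.8 CPM, a ratio of 0.616 (0.555 to 0.683), and was also lower in 5 of 6 bands. Tagln had a ratio of 0.658 (0.645 to 0.672). Because Tagln is a gene of the rule and part of the level on which the bands were cut, this value is a description and its levels by band support nothing. Acta2, with a ratio of 0.935 (0.927 to 0.944), and Myh11, with 1.0 (0.976 to 1.03), did not pass the fold.

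Ano3 (chr2:110655201-110950923, minus strand) encodes a member of the anoctamin family of membrane proteins. On the scale used for the fold, Ano3 was the gene furthest above the control that was not carried by a few cells. By the plain ratio of CPM, Eif3j2 was further above the control, at 12.3 (7.47 to 21.7). Ano3 was at 18.9 CPM in the control and 119 CPM in the Brca1 vKO, a ratio of 6.30 (5.38 to 7.41). It had a UMI in 98 of 612 and 867 of 1578 cells. At 5000 UMIs a cell, the share was 8.19% and 37.6%. In the stromal-like cells Ano3 was at 2.04 and 3.52 CPM and in the Sertoli-like cells at 1.06 and 1.01 CPM, and in the germ-like cells it was at 6.79 and 22.5 CPM. Of these classes the myoid cells had the highest level in both libraries. Ano3 was at 13.2, 26.6 and 12.6 CPM over the low, middle and high contractile part of the control and at 108, 133 and 104 CPM in the Brca1 vKO, so that each part of the Brca1 vKO was above each part of the control.

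Several of the other genes differed in the same direction outside the myoid cells. Rpl26, a ribosomal protein gene, was at 2467 and 1312 CPM in the myoid cells, at 2345 and 1277 CPM in the stromal-like cells and at 1592 and 830 CPM in the Sertoli-like cells. Eif3j2, which encodes a subunit of translation initiation factor 3, was at 1.78 and 21.9 CPM, at 4.07 and 21.1 CPM and at 2.46 and 22.3 CPM in the same order. C77080 was at 42.3 and 22.9 CPM in the myoid and at 51.0 and 27.2 CPM in the stromal-like cells, and 2810001G20Rik at 38.0 and 21.0 CPM and at 39.2 and 19.9 CPM. Lsmem1 was at 34.7 and 82.0 CPM and at 52.1 and 102 CPM, and Gm17056, which overlaps it on the opposite strand, was at 32.6 and 77.6 CPM in the myoid cells. Counting may split the reads of an overlapping pair, so these 2 are uncertain. Nup210l was at 59.1 and 124 CPM and at 34.5 and 68.1 CPM, and Nfe2l3 at 20.3 and 47.7 CPM and at 20.3 and 32.7 CPM. Unc13c was at 5.01 and 18.4 CPM and at 1.85 and 19.1 CPM. Of its 45 UMIs in the control myoid cells, 42.2% lay in 3 cells. The stromal-like cells of the same libraries thus differed in the same direction for each of these genes.

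Kcnip1, a protein that binds potassium channels, was at 252 and 114 CPM in the myoid cells, a ratio of 0.452 (0.425 to 0.480), and at 28.5 and 7.77 CPM in the stromal-like cells. Bmp5, a bone morphogenetic protein, was at 52.9 and 31.0 CPM, a ratio of 0.587 (0.518 to 0.665), and at 27.4 and 13.8 CPM in the stromal-like cells. The peptide transporter Slc15a2 was at 23.1 and 4.12 CPM and at 10.1 and 0.586 CPM. All 3 were lower in the Brca1 vKO in both classes. Pcdh11x, at 23.4 and 10.6 CPM, had 37.1% of its control UMIs in 3 cells. The remaining genes among the 12 furthest to each side were S100a9, S100a8, Camp, Ngp and Cma1 above and 4 globin genes below. Much of their RNA lay in the few cells described above as high in blood cell RNA. Without those cells Camp, Ngp and Cma1 no longer passed the fold, whereas S100a9, S100a8 and the 4 globin genes still did. Hbb-bs was also lower in the Brca1 vKO stromal-like cells, at 742 and 72.0 CPM. Cma1, a mast cell chymase, had 0 UMIs in the control and was at 14.2 CPM in the Brca1 vKO, and at 0.462 CPM without those cells.

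The 26 genes of the immediate early and stress response summed to a ratio of 1.22 (1.21 to 1.23), with a median of 0.22, and 1 of them, Ier2, passed the fold at 603 and 924 CPM. Egr1 was at 1272 and 1886 CPM and Btg2 at 3557 and 4703 CPM. The stromal-like cells were also higher in the Brca1 vKO for these 3, at 1386 and 1999 CPM for Ier2, 1973 and 2324 CPM for Egr1 and 1851 and 2206 CPM for Btg2. Sertoli cell markers summed to a ratio of 1.56 (1.49 to 1.63) in the myoid cells, and of the 10 markers Clu, Cst9 and Inha passed the fold. Such RNA was present in both libraries below the limit of the rule, and its part in other differences was not tested.

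Of the 10 genes listed as BRCA1 and its partners, none passed the fold on the log2(CPM + 10) scale. Their sum had a ratio of 0.912 (0.865 to 0.962). That scale narrows differences of genes at low levels, and the plain ratio of Brca1 was 0.577. Brca2, which acts in homologous recombination, was at 21.4 and 19.4 CPM. None of 23 p53 target genes passed the fold, and the summed ratio of all 26 listed was 0.959. Over all genes compared the share past the fold was 0.535%, so none of 10 and none of 23 say little about either list. Cdkn1a, the cell cycle inhibitor p21, was at 12.6 and 15.6 CPM and Mdm2 at 42.4 and 37.4 CPM.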

How the data were processed

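Single-cell RNA sequencing of whole testes at PD7 was used, with 1 library of a control male and 1 of a Brca1 vKO male. The deposited files hold UMI counts per gene and cell, which the authors made with Cell Ranger 6.0.2 against mm10 (GRCm38); they then used R 4.2.3 and Seurat 4.3.0.1. Whether doublets were removed, and from which end of the RNA the libraries read, is not given in the sources used here. The authors' filter of at least 750 genes and at most 10% mitochondrial UMIs was applied to 5812 and 9456 barcodes and left 5077 and 8712 cells, with 118228876 and 163226036 UMIs. Members and gene lists were chosen with earlier results of these data known.

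Counts were summed over the cells of a gate and divided by the summed UMIs (CPM). Differences are of log2(CPM + 10) over genes with at least 50 UMIs in the myoid cells of both libraries together. With 1 library a genotype no test was run. Levels carry exact Poisson intervals, shares Clopper-Pearson intervals, and ratios exact conditional intervals, all at 95%. UMIs of 1 cell are not independent, so these cover counting error only. Intervals are narrower, relative to the level, for genes with more UMIs. The control cells were deeper one by one, but their sum held fewer UMIs (8979641 against 17493274). Named genes were the markers, the members of the lists (those with the highest levels or the largest differences), the 15 with the largest difference from the stromal-like and from all other cells, and the 12 furthest to each side between the libraries, the last 3 among genes with at least 200 UMIs. Any other gene is said to be chosen after its values were seen.

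Gates other than that of the myoid cells used the same kind of rule, and a cell could be in more than 1 gate (14 control and 44 Brca1 vKO cells) or in none (407 and 567). Scrublet in scanpy 1.11.5 marked 161 and 249 retained cells (3.17% and 2.86%), which were kept. Barcodes outside the cell filter that met the gene rule numbered 5 and 10, and 21 barcodes occurred in both libraries. Positions are those of GENCODE vM21 on GRCm38, and 32158 of 32285 genes had one. Promoter windows are from RefSeq on GRCm38.p6, which held 32 of 38 contractile genes. The ratios and their intervals were run on simulated independent Poisson counts, without variation between cells, animals or libraries. This checked the calculation only. Python 3.11.15, numpy 2.4.6, pandas 2.3.3, scipy 1.17.1 and matplotlib 3.10.9 were used. A few listed genes are counted in their lists but not reported here by name.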

Additional observations from a re-analysis of the deposited data

How the results depend on the processing

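No paired analysis was possible because each genotype has 1 library. The ratio of myoid shares was 1.29 with a mitochondrial limit of 5% and 1.25 with germ cells left out of the total, against 1.5. The 49 genes higher in the Brca1 vKO became 330 with a pseudocount of 1, 9 with a pseudocount of 50 and 11 at 2-fold. The 19 lower genes became 133, 6 and 6 under the same changes, and 78 with no limits on genes of other classes. The contractile ratio of 0.905 was 0.917 with a contractile minimum of 10, 0.954 with no limits, 0.913 with TMM scaling and 0.959 within a contractile level of 60 to 120. The basement membrane ratio of 0.993 was 1.04 with no limits, 1.002 with TMM scaling, 1.004 without cycling cells and 1.005 within a level of 60 to 120, all past 1. The ratio of cycling shares, 1.14, was 0.819 with no limits. The cause of these shifts was not tested. Over 14 settings the ratio ranged from 0.590 to 0.679 for Myocd, 0.628 to 0.720 for Tagln, 0.607 to 0.739 for Itga8, 5.0 to 6.58 for Ano3 and 0.428 to 0.703 for Brca1. Each stayed on its side of 1, but without cycling cells the interval of the Brca1 ratio reached 1.09. The range of contractile level and the removal of cells high in blood, endothelial or macrophage RNA (42 genes higher and 20 lower) were alternatives chosen after seeing the data. Depth limits the pericyte-like cells most, where 1 UMI is 2.18 CPM in the control and 2.49 CPM in the Brca1 vKO.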

Other observations

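The genes given here lie outside the named lists and were chosen after their values were seen. Mt1, a metallothionein that binds zinc, was at 1214 CPM in the control and 2133 CPM in the Brca1 vKO myoid cells, and at 507 and 820 CPM in the stromal-like cells. Bdnf, a neurotrophin, was at 44.1 and 71.5 CPM in the myoid cells. Nppc, which encodes the C-type natriuretic peptide, was at 37.3 and 72.0 CPM. The synaptic scaffold gene Homer1 was at 217 and 346 CPM. All 4 were past 1.5-fold on the log2(CPM + 10) scale, with 1 library a genotype and no replicate check.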
